A study of Mus musculus with 6 samples.

Results

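Cardiac transcription factors are the DNA-binding proteins that build and maintain heart muscle. The set described here holds 10 of them: Gata4, Gata6, Nkx2-5, Tbx5, Tbx20, Mef2a, Mef2c, Hand2, Irx4 and Hey2. They were found on the array by gene name among probes that are not control spots. These 10 genes had 13 probes, of 55681 gene probes on the array, and they were 10 of 22991 genes tested.

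The study asked whether blocking the microRNA miR-433 limits scarring of the heart after infarction. Its animals were male C57BL/6 mice, 8 weeks old, in which the left anterior descending coronary artery had been tied off to cause a myocardial infarction. A tail vein injection on each of 3 days in a row gave either 80 mg/kg of a miR-433 antagomir, a chemically modified oligonucleotide that binds and blocks the microRNA, or a scrambled control. Hearts were collected 21 days after infarction, and total RNA was hybridised to 1-colour Cy3 arrays, 3 per group. Infarction was shared by both groups, and no uninfarcted heart was analysed here. The labels name the tissue only as heart, and neither the chamber or zone sampled nor the number of mice behind an array is given. The p-values therefore measure only the spread between these samples, which may be technical, and the number of arrays limits the precision.

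The factors work as a network. GATA zinc-finger proteins, the homeodomain protein Nkx2-5 and T-box proteins bind neighbouring sites at genes of the contractile apparatus and natriuretic peptides and raise each other's activity, while MEF2 proteins of the MADS-box family drive muscle genes and respond to calcium and stress signals. Other members shape the chambers: Irx4 and Hey2 hold ventricular identity, Tbx5 is strong in the atria and left ventricle, and Hand2 is needed for the right ventricle of the embryo. In the adult heart most of them stay on in cardiomyocytes, and several take part in the response to overload.

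The mature microRNA against which the treatment was directed is shown first because it defines the 2 groups. The labels do not say which arm was blocked, so both arms are given, 5′ to 3′, with the seed (bases 2 to 8) in capitals. They differ in seed. In GRCm38.p6 the 3p arm lies on the + strand at chr12:109591781-109591802 and the 5p arm on the same strand at chr12:109591729-109591750.
mmu-miR-433-3p: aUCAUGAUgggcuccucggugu
mmu-miR-433-5p: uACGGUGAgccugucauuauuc

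Promoter windows were used to look for motifs upstream of the members. Windows of 250 bases before a RefSeq start in GRCm38.p6 were taken for 7 members, 9 windows in all. No window was taken for Gata4, Gata6 or Tbx5, so the motif counts and G+C range do not cover them. Their absence does not show that they lack a RefSeq start. The windows were searched on both strands for the GATA motif (AGATAA or AGATAG or TGATAA or TGATAG), the NK2 motif (TNAAGTG), the T-box motif (AGGTGTNA) and the MEF2 motif (CTA and TAG with 4 bases between them). A GATA motif was in 1 of the 9 windows, that of Hand2, against 26.5% of 32851 promoter windows of the same length. The other motifs were in 0 of the 9, against 10.1%, 2.68% and 3.20% of all promoter windows. The G+C share of the members' windows ran from 33.6% to 71.6%, against a median of 52.4% over all promoter windows. The 2 windows printed belong to the members with the largest positive and the largest negative difference between groups, and capitals mark GATA motifs. Hand2's window, on the + strand at chr8:57320733-57320982, held TGATAA beginning 215 bases before the start and TTATCT, the reverse complement of AGATAA, beginning 172 bases before it. These matches did not overlap. Tbx20's window, on the - strand at chr9:24774304-24774553, held none of the 4 motifs. A match is only a run of letters, and no binding was measured here.
Hand2: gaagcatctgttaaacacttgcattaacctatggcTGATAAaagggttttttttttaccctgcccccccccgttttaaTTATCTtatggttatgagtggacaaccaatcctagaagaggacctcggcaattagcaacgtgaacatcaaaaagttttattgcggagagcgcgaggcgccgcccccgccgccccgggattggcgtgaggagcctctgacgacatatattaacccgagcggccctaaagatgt
Tbx20: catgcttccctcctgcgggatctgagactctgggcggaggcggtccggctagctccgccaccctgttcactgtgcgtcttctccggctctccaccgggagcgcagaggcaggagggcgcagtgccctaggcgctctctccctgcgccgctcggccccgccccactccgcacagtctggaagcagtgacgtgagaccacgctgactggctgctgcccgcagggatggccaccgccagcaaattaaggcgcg

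All 6 arrays were on 1 slide and in 1 scan; control arrays 1 and 2 were in slide row 1 and the other 4 in row 2. The scanner called 55.2% to 58.5% of gene spots above background on 5 arrays, and 73.6% on antagomir array 3, where 43.8% of the probes dim on every other array were called above background. On the remaining arrays that share was 1.93% to 3.37%. All 13 member probes were well above background on all 6 arrays, and 0 spots were saturated. A level here is log2 of the processed spot signal minus the 75th percentile of the array's gene spots, so 0 is that percentile. Probes bind with different strength, so levels are compared between arrays and not between genes.

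No difference between treated and control hearts in the 10 factors passed the test. The limma test, a two-sided linear model with moderated variances over all 22991 genes, gave 0 members an adjusted p (Benjamini-Hochberg) under 0.05. The same threshold took 0.00435% of all genes, which is the single gene Defa-ps1. Without any 1 control array 0 genes were called, and without any 1 antagomir array 2 were called. At an unadjusted p under 0.05 the members again numbered 0, against 7.15% of all genes (3.23% higher and 3.93% lower with the antagomir). Members whose groups did not overlap also numbered 0, against 16.7% of all genes (10.3% higher and 6.45% lower). Adjusted p-values of the members ran from 0.661 to 0.986 in the limma fit. Their smallest exact permutation p, two-sided, was 0.2, in a design that allows none below 0.1.

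The mean was higher with the antagomir in 9 of 10 members, with Tbx20 the exception, but 7 of 10 were lower under median scaling, and again 7 in a fit blocked by slide row. Among all genes 64.8% were higher. The median log2 difference, antagomir minus control, was 0.25 over the members and 0.11 over all genes. Median scaling takes levels relative to each array's median signal, which was 77.8 units on antagomir array 3 and 26.2 to 34.8 units on the others. It moved the median of all genes to -0.35 and that of the members to -0.22. This shift is the same for every gene and keeps the members' median 0.14 above that of all genes. That gap was -0.10 in the fit blocked by slide row, -0.03 with no filter on dim probes, 0.03 without antagomir array 1 and 0.27 without control array 3. It was -0.01 without control array 2, where the members' own median was 0.05 and 4 members were lower. Leaving out control array 3 gave the members a median of 0.41, and leaving out antagomir array 1 gave 0.14. In all, 3 members were lower without antagomir array 1 and 2 without antagomir array 3, where the median was 0.23.

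**Figure D1:**
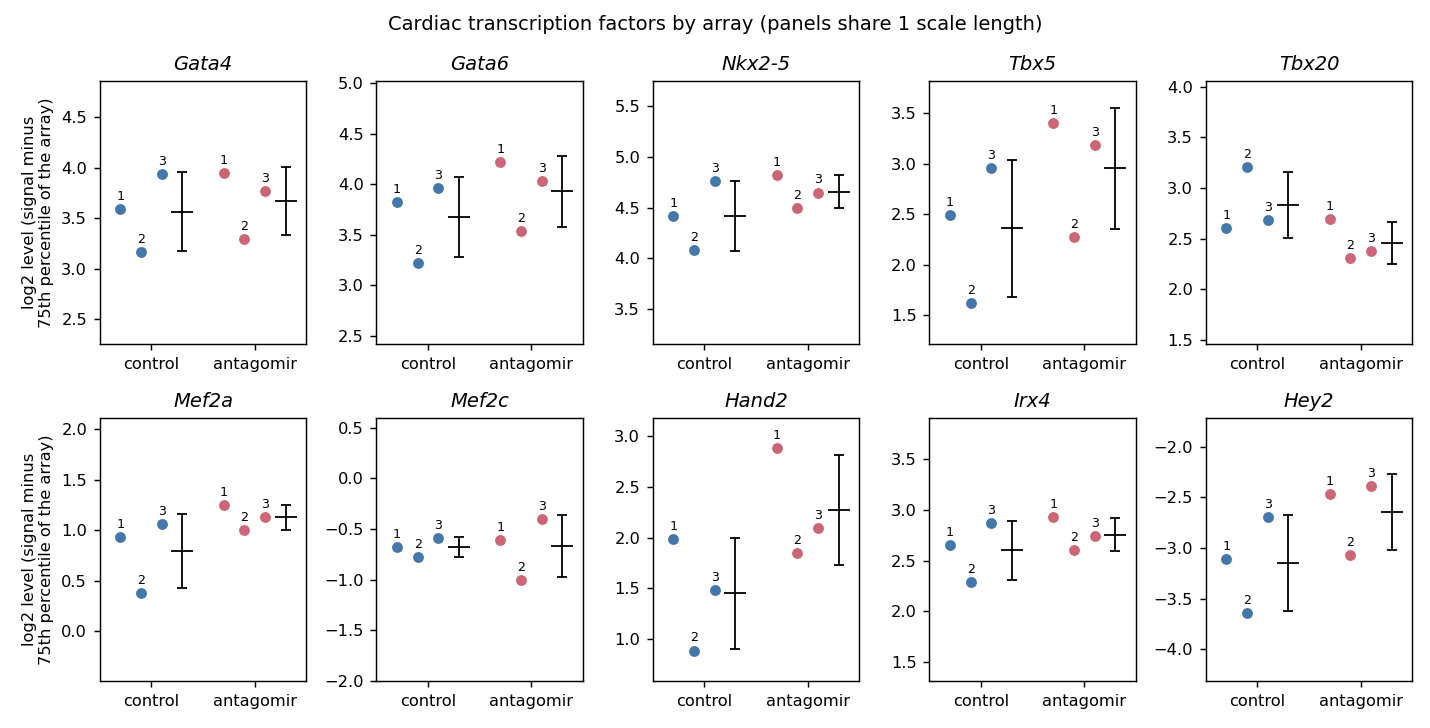
Log2 level of each of the 10 factors on the 6 arrays (y axis, log2 units; points are arrays with their number, bars are mean ± SD of 3 arrays per group). The groups overlap in every panel, and control array 2 is the lowest point in 8 of the 10 panels.

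Most members varied together from array to array within each group. Control array 2 was the lowest of the 6 arrays in 8 members, against 38.3% of all genes, and the highest in 1 member, Tbx20, against 18.4% of all genes. Antagomir array 1 was the highest of the 6 in 7 members, against 24.4% of all genes. Antagomir array 2 was the lowest of its group in all 10, but the share over all genes was not counted for this. The mean over the 10 members, relative to the control mean, was 0.09, -0.34 and 0.26 log2 units on control arrays 1, 2 and 3. Antagomir arrays 1, 2 and 3 stood at 0.52, -0.06 and 0.33. The within-group swing was thus larger than the difference between groups. Cardiomyocyte markers, a list of 14 genes made mainly by heart muscle cells, such as Tnnt2 and Ryr2, had the same order on the control arrays. Control arrays 1, 2 and 3 had a marker mean of 0.12, -0.26 and 0.13, and antagomir arrays 1, 2 and 3 had 0.31, 0.14 and 0.30. In bulk tissue fewer cells of a type cannot be told apart from less RNA per cell.

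The GATA factors open the chain: Gata4 and Gata6 are zinc-finger proteins that start cardiac gene expression in the embryo, and Gata4 also serves the hypertrophic response of the adult heart. The Gata4 probe (mm9 chr14:63817858-63817917, - strand) read 3.59, 3.17 and 3.94 on control arrays 1, 2 and 3. It read 3.95, 3.30 and 3.77 on antagomir arrays 1, 2 and 3. Control array 2 and antagomir array 2 were both low, control array 3 was as high as the highest treated array, and the groups overlapped almost fully. The log2 difference was 0.10 (SE 0.27, 95% interval -0.55 to 0.76, limma adjusted p = 0.885). It was below 0 in 5 of 19 other settings.

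The Gata6 probe (mm9 chr18:11085039-11085097, + strand) read 3.83, 3.22 and 3.97 on control arrays 1, 2 and 3 and 4.22, 3.54 and 4.03 on antagomir arrays 1, 2 and 3. Array 2 was the lowest in both groups, and antagomir arrays 1 and 3 stood just above the highest control. Treated minus control, in log2 units, was 0.26 (SE 0.27, interval -0.42 to 0.93, limma adjusted p = 0.729), and it was below 0 in 2 of 19 other settings.

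Nkx2-5 is the NK2 homeodomain protein that partners with GATA and T-box factors and is among the earliest marks of the cardiac lineage. Its probe (mm9 chr17:26975621-26975680, - strand) read 4.41, 4.08 and 4.76 on control arrays 1, 2 and 3. The antagomir arrays 1, 2 and 3 read 4.82, 4.50 and 4.65. Every treated array lay within or just above the control range, and the treated arrays were closer together (SD 0.16) than the controls (SD 0.34). On the log2 scale the difference was 0.24 (SE 0.21, interval -0.28 to 0.76, limma adjusted p = 0.694), and it was below 0 in 3 of 19 other settings.

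The T-box pair differed in sign. Tbx5, an activator needed for atrial and left ventricular development and for the conduction system, had the widest interval of the 10. Its probe (mm9 chr5:120334087-120334146, + strand) read 2.50, 1.63 and 2.95 on control arrays 1, 2 and 3 and 3.40, 2.27 and 3.18 on antagomir arrays 1, 2 and 3. Antagomir arrays 1 and 3 were above every control, while antagomir array 2 lay below 2 of the 3 controls. The difference in log2 level was 0.59 (SE 0.44, interval -0.49 to 1.68, limma adjusted p = 0.666). Blocking by slide row gave -0.0022, the 1 of 19 other settings in which it was below 0.

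Tbx20, which keeps adult cardiomyocytes working and both activates and represses its targets, was the 1 member with a lower mean in treated hearts. The probe that stands for the gene (A_52_P429876, mm9 chr9:24527750-24527809, - strand) read 2.61, 3.21 and 2.69 on control arrays 1, 2 and 3. It read 2.69, 2.31 and 2.37 on antagomir arrays 1, 2 and 3. Control array 2 was the highest array for this gene, the reverse of most members. Antagomir arrays 2 and 3 were below every control, and antagomir array 1 was inside the control range. The log2 difference was -0.38 (SE 0.22, interval -0.91 to 0.15, limma adjusted p = 0.661), and it was below 0 in all 21 other settings, from -0.84 to -0.075.

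Both further Tbx20 probes are much dimmer and were designed to another RefSeq transcript. Probe A_55_P1976310 (mm9 chr9:24544715-24544774) read -2.59, -0.97 and -2.69 on control arrays 1, 2 and 3 and -3.05, -3.42 and -1.92 on antagomir arrays 1, 2 and 3, a log2 difference of -0.72 (SE 0.60). Probe A_55_P2162503 (mm9 chr9:24563177-24563236) read -2.52, -0.99 and -2.27 on control arrays 1, 2 and 3 and -2.35, -2.64 and -2.11 on antagomir arrays 1, 2 and 3, a difference of -0.44 (SE 0.43). On all 3 probes control array 2 was the highest and antagomir array 2 the lowest. Apart from control array 2, control and treated arrays overlapped on both dim probes.

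**Figure D2:**
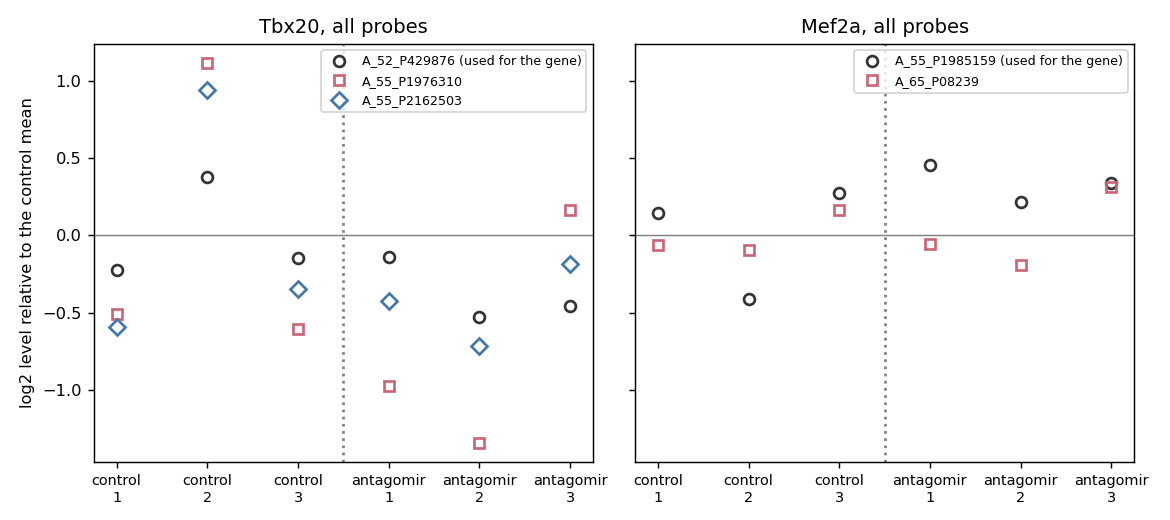
Every probe of Tbx20 (left) and Mef2a (right) on the 6 arrays, as log2 level relative to the mean of the 3 control arrays (y axis, log2 units; symbols are probes). Control array 2 is the highest point for all 3 Tbx20 probes, and the 2 Mef2a probes differ on that array.

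MEF2 proteins bind A/T-rich sites at muscle genes, and Mef2a is the form that dominates in the adult heart, where it serves energy metabolism and contractile upkeep. The brighter Mef2a probe (A_55_P1985159, mm9 chr7:74379575-74379634, - strand) read 0.93, 0.38 and 1.06 on control arrays 1, 2 and 3. It read 1.25, 1.01 and 1.13 on antagomir arrays 1, 2 and 3. Control array 2 stood low, and antagomir arrays 1 and 3 were just above the highest control. Treated minus control, in log2 units, was 0.34 (SE 0.22, interval -0.19 to 0.86, limma adjusted p = 0.661), and under median scaling it was -0.13. The other Mef2a probe (A_65_P08239, mm9 chr7:74378751-74378810) read -2.18, -2.21 and -1.96 on control arrays 1, 2 and 3 and -2.18, -2.31 and -1.81 on antagomir arrays 1, 2 and 3. That probe gave a difference of 0.02 (SE 0.18), and control array 2 did not stand apart on it.

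Mef2c, which acts in the early heart tube and returns in hypertrophy, had the smallest difference of the set. Its probe (mm9 chr13:83772788-83775025, + strand) covers 2238 bases of genome and so crosses an intron. It read -0.67, -0.78 and -0.59 on control arrays 1, 2 and 3 and -0.61, -1.0 and -0.40 on antagomir arrays 1, 2 and 3. Treated arrays were both the highest and the lowest, around controls that lay close together (SD 0.10, against 0.31 for treated arrays). On the log2 scale the difference was 0.01 (SE 0.19, interval -0.46 to 0.48, limma adjusted p = 0.986), and it was below 0 in 7 of 19 other settings.

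Hand2, a basic helix-loop-helix factor of the developing right ventricle that is also made by neural crest and stromal cells, had the largest difference of the 10. Its probe (mm9 chr8:59803220-59803279, + strand) read 1.99, 0.89 and 1.48 on control arrays 1, 2 and 3. It read 2.88, 1.85 and 2.09 on antagomir arrays 1, 2 and 3. Antagomir array 1 was well above every other array, antagomir array 3 was just above control array 1, and antagomir array 2 was just below it. The processed signal was 2089, 1017 and 1408 units on the controls and 3163, 1579 and 1955 on the treated arrays. Before scaling, antagomir array 3 thus lay below control array 1. The difference in log2 level was 0.82, or 1.77-fold (SE 0.38, interval -0.12 to 1.76, unadjusted p = 0.076, limma adjusted p = 0.661). It exceeded in size the differences of 91.9% of all genes. The sign held in all 19 other settings, with values from 0.36 to 1.09; none took it past the adjusted threshold, the smallest adjusted p being 0.373. Its promoter window, printed above, was the only 1 of the 9 with a GATA motif, which 26.5% of all promoter windows held. Whether GATA factors act on Hand2 was not tested.

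**Figure D3:**
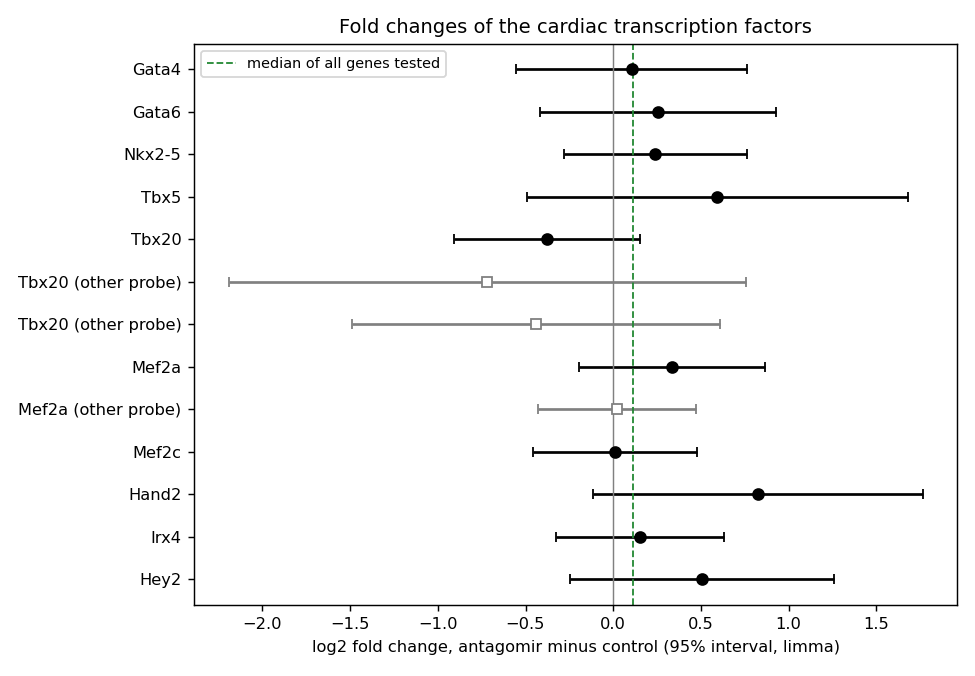
Log2 difference, antagomir minus control, of every member probe with its 95% interval from limma (x axis, log2 units; filled circles stand for genes, open squares are further probes, the dashed line is the median of all genes, 0.11). Every interval includes 0, and the signs of the filled circles shift with scaling, 7 of 10 lying below 0 under median scaling.

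Among the chamber-restricted factors, the ventricular pair Irx4 and Hey2 were both higher as reported. So were 9 of the 10 members, these 2 included, and 64.8% of all genes. The pair split under median scaling (Irx4 -0.31, Hey2 0.04) and in the fit blocked by slide row (Irx4 -0.11, Hey2 0.05). Irx4, an Iroquois homeodomain protein that favours ventricular over atrial myosin, had a probe (mm9 chr13:73406712-73406771, + strand) that read 2.65, 2.29 and 2.87 on control arrays 1, 2 and 3 and 2.93, 2.60 and 2.74 on antagomir arrays 1, 2 and 3. Antagomir array 1 was just above the highest control, and the other treated arrays were inside the control range. The log2 difference was 0.15 (SE 0.20, interval -0.33 to 0.63, limma adjusted p = 0.767), and it was below 0 in 4 of 19 other settings.

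Hey2, a Notch-responsive repressor that keeps atrial genes off in the ventricular compact layer, was close to the dim end of the array but well above background throughout. Its probe (mm9 chr10:30552729-30552788, - strand) read -3.10, -3.64 and -2.70 on control arrays 1, 2 and 3 and -2.47, -3.07 and -2.39 on antagomir arrays 1, 2 and 3. Antagomir arrays 1 and 3 were above every control, and antagomir array 2 was between control arrays 1 and 3. The processed signal was 61.3, 44.2 and 77.8 units on the controls and 77.4, 52.3 and 87.6 on the treated arrays, so that before scaling antagomir array 1 lay inside the control range. Treated minus control, in log2 units, was 0.50 (SE 0.31, interval -0.25 to 1.26, limma adjusted p = 0.661). Its sign held in all 19 other settings, with a lowest value of 0.04 under median scaling. The size did not hold: it was 0.12 under quantile scaling and in the authors' deposited table. With another background correction (normexp) and quantile scaling it was 0.07.

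Atrial genes were very uneven between the arrays, and their values stand beside those of the chamber factors. Sln, the atrial inhibitor of the calcium pump, read -4.27, -2.41 and 0.27 on control arrays 1, 2 and 3 and -1.71, 4.82 and 6.43 on antagomir arrays 1, 2 and 3. Myl7, the atrial regulatory myosin light chain, read -5.10, -5.23 and -0.13 on the controls and -3.19, 3.20 and 5.03 on the treated arrays, with 5 of 6 arrays well above background. Both were high on antagomir arrays 2 and 3, and control array 3 was the highest control. Their log2 differences were 5.32 (SE 2.31) for Sln and 5.16 (SE 2.47) for Myl7, both with a limma adjusted p of 0.661. Myl4, the atrial essential light chain, followed with 1.12, 2.44 and 3.48 on the controls and 1.95, 6.56 and 7.88 on the treated arrays. Nppa, the atrial natriuretic peptide that ventricles also make under stress, did not: it read 8.35, 9.02 and 8.30 on the controls and 4.55, 7.60 and 8.45 on the treated arrays.

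Over the 11 of 13 atrial markers tested, 6 were higher and 5 lower, with a median log2 difference of 0.02. Bmp10, a growth factor of the atrial wall, was well above background on 1 array and was not tested. The summed atrial signal, in multiples of the array's 75th percentile, ran from 347 to 563 on the controls and from 42.8 to 735 on the treated arrays. Nppa was the largest part of that sum on every array. Tbx5 was highest on antagomir array 1, where the mean of the atrial markers was 0.54 log2 units below the control mean (-0.54). Nppa and Dkk3 were far below there, at 4.55 and -0.65 against control means of 8.56 and 3.24. Sln, Myl7, Kcnj3 and Stard10 were above their control means on that array, and the remaining markers were below theirs by less. Dkk3 and Kcnj3 were named after their values were seen. Tbx5 was lower on antagomir arrays 2 and 3, where the atrial mean was 1.52 and 2.34. On antagomir array 3 Tbx5 was still above every control. Stard10, also on the atrial list, was higher by 1.28 (SE 0.43, unadjusted p = 0.024), and Nr2f2, a nuclear receptor that specifies atrial identity, was lower without overlap, as given among the related regulators.

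The ventricular list had 7 of 8 genes tested, 2 of them the members Irx4 and Hey2, and 6 were higher, with a median difference of 0.22. Myl2, the ventricular regulatory light chain, read 8.53, 8.53 and 8.69 on control arrays 1, 2 and 3 and 8.88, 8.74 and 8.94 on antagomir arrays 1, 2 and 3. These groups did not overlap, and the difference was 0.27 (SE 0.13, limma adjusted p = 0.661). Kcnj2, an inward rectifier potassium channel, was higher by 0.59 (SE 0.30). The summed ventricular signal ran from 970 to 1151 on the controls and from 1144 to 1272 on the treated arrays, so control array 3 alone reached into the treated range. The part of chamber makeup in the values of Irx4, Hey2 and Tbx5 was not tested.

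**Figure D4:**
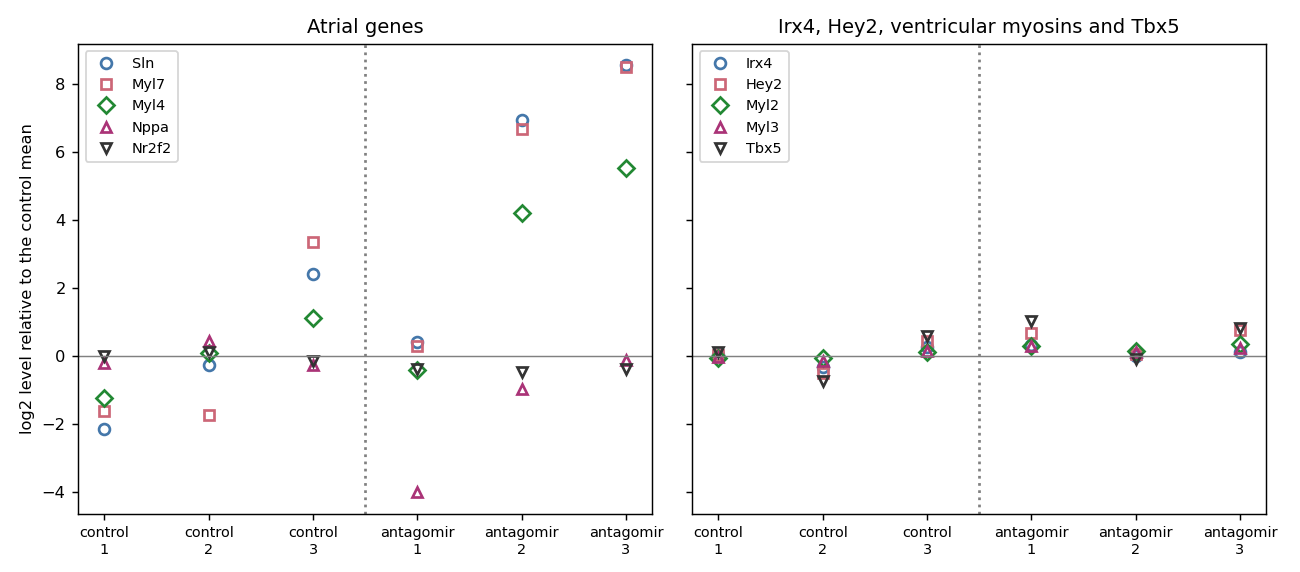
Atrial genes (left) and Irx4, Hey2, ventricular myosin light chains and Tbx5 (right) on the 6 arrays, as log2 level relative to the control mean (y axis, log2 units, the same in both panels; symbols are genes). Sln, Myl7 and Myl4 are high on antagomir arrays 2 and 3, while Tbx5, the widest of the right panel, spans 1.78.

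Related cardiac regulators, the relatives and partners of the 10, had 25 of 30 genes tested: 17 were higher and 8 lower, with a median difference of 0.11, that of all genes. At an unadjusted p under 0.05, 4 were lower and 0 higher (3.93% and 3.23% of all genes), and none passed the adjusted threshold in the limma fit. The 3 with the smallest p were all lower. Tbx1, a T-box factor of the second heart field and pharynx, read -0.36, -0.01 and -0.60 on control arrays 1, 2 and 3 and -1.72, -2.20 and -1.11 on antagomir arrays 1, 2 and 3. These groups did not overlap, and the difference was -1.36 (SE 0.32, limma adjusted p = 0.575). Tbx18, of the epicardium and sinus node, read -1.98, -1.40 and -2.02 on the controls and -2.69, -2.80 and -2.22 on the treated arrays, a difference of -0.77 (SE 0.25). Nr2f2 read 0.88, 0.99 and 0.74 on the controls and 0.49, 0.41 and 0.50 on the treated arrays, a difference of -0.41 (SE 0.13). All 3 were highest on control array 2 and lowest on antagomir array 2, as Tbx20 was. The 4th gene, Heyl, a Notch-responsive relative of Hey2, differed by -0.39 (SE 0.15); it was singled out after its value was seen.

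Other relatives lay closer to the members' own differences. Gata5 was higher by 0.54 (SE 0.37), Mef2b by 0.30 (SE 0.18) and Mef2d by 0.39 (SE 0.22). In the limma fit none of these passed the adjusted threshold; these 3 were picked as family relatives after their values were seen. Tbx3, a repressor that keeps the conduction system from becoming working muscle, read 2.89, 2.00 and 2.68 on control arrays 1, 2 and 3 and 2.67, 3.21 and 3.04 on antagomir arrays 1, 2 and 3. Unlike Tbx5, it was highest on antagomir array 2, and its difference was 0.46 (SE 0.28). Hopx, an atypical homeodomain protein that restrains serum response factor, read 6.20, 5.01 and 6.30 on the controls and 6.42, 6.21 and 6.31 on the treated arrays, a difference of 0.48 (SE 0.36). Its low value on control array 2 was the one array that stood apart. Myocd, the coactivator of serum response factor, differed by 0.11 (SE 0.13). Hand1, the left ventricular relative of Hand2, and Isl1, a marker of second heart field progenitors, were well above background on 0 arrays and were not tested.

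Target genes through which these factors are usually read had 23 of 24 genes tested, of which 19 were higher and 4 lower, with a median difference of 0.21. Apart from Myl7, given with the atrial genes, the largest values in this list were those of Myh7 and Nppb. Myh7, the slow myosin heavy chain of the fetal and stressed ventricle, read 6.80, 8.69 and 7.49 on control arrays 1, 2 and 3 and 3.86, 5.50 and 5.48 on antagomir arrays 1, 2 and 3. Every treated array was below every control, by a mean log2 difference of -2.72 (SE 0.65, limma adjusted p = 0.575). Nppb, the B-type natriuretic peptide, read 5.45, 7.30 and 5.26 on the controls and 1.71, 4.76 and 3.46 on the treated arrays, a difference of -2.70 (SE 0.91, limma adjusted p = 0.661). Control array 2 was the highest for both, and antagomir array 1 the lowest. Control array 2 was the lowest of the 6 in 8 members but the highest for Tbx20, and antagomir array 1 was the highest in 7 members, with Tbx20, Mef2c and Hey2 the exceptions. Atp2a2, which pumps calcium back into the sarcoplasmic reticulum, was higher by 0.33 (SE 0.15), and Nppa differed by -1.69 (SE 1.00).

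Markers of some other cell types had larger differences than the factors, although none passed the adjusted threshold in the limma fit. All 14 cardiomyocyte markers were higher, with a median difference of 0.22, and in 6 of them the groups did not overlap (64.8% of all genes were higher, and 10.3% higher without overlap). Their summed signal ran from 3115 to 3813 on the controls and from 3817 to 4227 on the treated arrays. These marker counts and sums hold only for the scaling reported. Median scaling lowers every gene alike and moved the median of all genes from 0.11 to -0.35. The markers were not counted under it. The fibroblast list had 12 of 14 genes lower, a median difference of -1.35, and 9 genes lower at an unadjusted p under 0.05 (3.93% of all genes). The summed fibroblast signal ran from 833 to 1099 on the controls and from 546 to 653 on the treated arrays. Col3a1, a fibrillar collagen, differed by -3.31 (SE 0.52), Col1a2 by -2.15 (SE 0.36) and Col6a1 by -1.62 (SE 0.25). The fibroblast mean relative to the controls was 0.43 on control array 2, the array on which 8 of the 10 factors were lowest. What part these markers had in the factors' values was not tested. Taking levels relative to the mean of the cardiomyocyte markers shifts every gene alike: the members' median difference was then 0.00014, with 5 of 10 lower, and the median of all genes was -0.14.

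Further lists describe the rest of the tissue. Smooth muscle and pericyte markers were lower in 9 of 12 (median -0.40; Tagln -1.09, SE 0.34), macrophage markers in 11 of 13 (median -0.33; Gpnmb -1.92, SE 0.41) and endothelial markers in 11 of 14 (median -0.07; Erg -0.59, SE 0.17). The treated arrays differed among themselves in the macrophage list. Its summed signal was 62.2, 117 and 42.0 on antagomir arrays 1, 2 and 3, against 77.8 to 79.4 on the controls. Epicardial and mesothelial markers, with 11 of 12 tested, had a median of -0.07 and 6 lower. Conduction system markers, with 8 of 12 tested, had 6 higher and a median of 0.40; Cacna1g, a T-type calcium channel, was higher by 0.66 (SE 0.26, unadjusted p = 0.047). All 8 adipocyte markers tested, of 10, were higher, with a median of 2.78 (Plin1 2.70, SE 1.09), but they were uneven between arrays. Their mean relative to the control mean was -1.58, -0.11 and 1.69 on control arrays 1, 2 and 3. On antagomir arrays 1, 2 and 3 it was 1.04, 2.61 and 2.62, so control array 3 lay above antagomir array 1. Skeletal muscle markers, with 7 of 12 tested, had 4 higher (median 0.24; Pvalb 1.18, SE 0.18). Lung and airway markers had 2 of 9 tested, 1 higher and 1 lower. Sftpa1, Scgb3a2 and Nkx2-1 were well above background on 0 arrays, and Sftpc, Sftpb, Foxj1 and Ager on 1 array each.

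For the 3 members whose levels spanned more than 1 log2 unit over the 6 arrays, the genes with the nearest profiles were sought. The measure was the root mean square difference of levels after each gene was centred over the 6 arrays. Nearest to Tbx5 were Gstm3 (0.059) and Gstm4 (0.067), 2 glutathione transferases, and an unnamed intergenic RNA probe on chromosome 13 (0.078). Nearest to Hey2 were Hpca (0.050), Olfr1368 (0.064) and Pglyrp3 (0.066). Hand2 had no profile as near: Crat, carnitine acetyltransferase, was at 0.177, an intergenic RNA probe on chromosome 12 at 0.189 and Ube2t at 0.200. No other member of the 10 was among the 3 nearest of another. All these profiles come from the same 6 arrays.

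**Figure D5:**
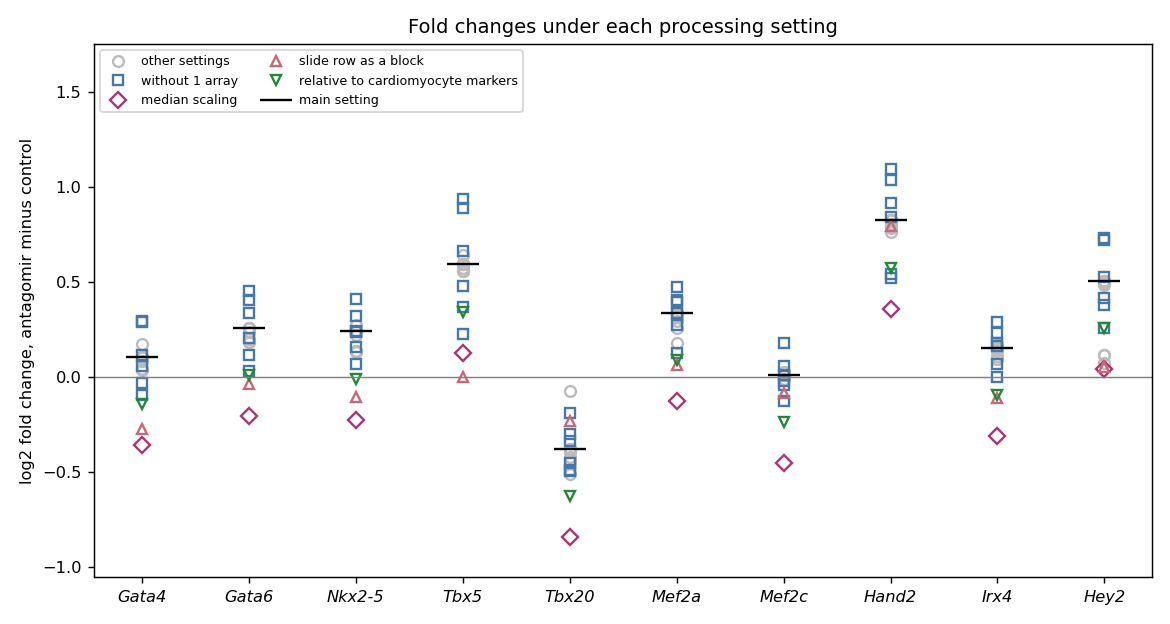
Log2 difference of each of the 10 factors under every processing setting (y axis, log2 units; the black bar is the value reported, symbols are other settings). Hand2, Hey2 and Tbx20 keep their sign in every setting drawn, while median scaling puts 7 of the 10 below 0.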

How the data were processed

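Total RNA of 6 heart samples was measured on 1-colour Cy3 arrays. The deposited files were written, per the file headers, by Agilent Feature Extraction 10.7.1.1, which corrected each spot's intensity for background and did not normalise between arrays. The deposited flags for spots above background, saturated or outlying are other values, 0 or 1 per the file headers. The authors' deposited table holds log2 values, normalised so that every column has the same sorted values (largest gap 0.00143), and raw intensity columns equal to the scanner signal within 1%.

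Outlier and control spots were left out and spots of 1 probe averaged. Levels are log2 processed signal less the 75th percentile of gene spots on that array. A probe entered the test if 3 or more of the 6 arrays had it well above background (31716 probes), and the brightest probe on average stood for its gene. Probe positions are the array design's (mm9), without exon or UTR annotation here. Groups were compared by limma 3.58.1 in R 4.3.3, two-sided, with Benjamini-Hochberg adjustment over 22991 genes. Promoter and microRNA sequences are RefSeq's, in GRCm38.p6. Python 3.11.15 made the tables (pandas 2.3.3, numpy 2.4.6) and figures (matplotlib 3.10.9). Tested on simulated data over 22991 genes, the fit found 27.2% of 2-fold, 62% of 4-fold and 81.6% of 8-fold changes. The simulated noise was independent between genes, without shifts shared by many genes on an array. These shares therefore need not hold for the real arrays.

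The members, the gene lists and the tests were chosen with earlier results of these data known. Genes named are the 10 members, up to 3 genes of smallest p in each list, and a few fixed chamber, fibroblast and regulator genes. The 3 genes nearest in profile to each member spanning over 1 log2 unit are also named. Any other is said to be chosen after its values were seen. Exceptions are Defa-ps1, the examples Tnnt2 and Ryr2, and genes named as not tested or not well above background. Alternatives were other scalings, background correction by normexp (offset 50), filters, probe rules, moderation, array weights, blocks for replicate number and slide row, and each array left out. Scaling to cardiomyocyte markers and a percentile over probes were added after the data were seen.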

Additional observations from a re-analysis of the deposited data

How the results depend on the processing

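No member passed the adjusted threshold under any setting tried. The number of genes called, 1 as reported, was 239 under median scaling, 8 with array weights, 5 with every probe by itself, 3 with trend and robust moderation, 3 with the 75th percentile over probes, 2 relative to cardiomyocyte markers, and 0 with normexp and quantile scaling, with probes above background on all 6 arrays, with the replicate block and with slide row as block. It was 0 to 2 with 1 array left out. The members' median difference, 0.25 as reported, was -0.22 under median scaling and -0.060 with slide row as block, and ran from 0.05 to 0.41 with 1 array left out. Members lower numbered 7 under median scaling, 7 with the slide row, 5 relative to cardiomyocyte markers, 2 with the percentile over probes, 3 (of 13 probes) with every probe by itself, and 1 to 4 with 1 array left out. Higher genes numbered 14899 as reported, 3239 under median scaling and 10540 under quantile scaling.

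Single members reversed as follows; the cause was not tested. Under median scaling the differences were -0.36 for Gata4, -0.21 for Gata6, -0.22 for Nkx2-5, -0.13 for Mef2a, -0.45 for Mef2c and -0.31 for Irx4. Blocking by slide row compares control array 3 only with the treated arrays, and gave -0.27 for Gata4, -0.037 for Gata6, -0.10 for Nkx2-5, -0.0022 for Tbx5, -0.083 for Mef2c and -0.11 for Irx4. Relative to cardiomyocyte markers they were -0.14 for Gata4, -0.0088 for Nkx2-5, -0.24 for Mef2c and -0.094 for Irx4, and with the percentile over probes -0.0082 for Mef2c. With 1 array left out, Gata4 ran from -0.094 to 0.29, Mef2c from -0.12 to 0.18 and Irx4 from -0.0020 to 0.29.

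Whether replicate numbers pair the samples was not settled. Same-numbered arrays' deviations correlated at 0.222, 0.142 and -0.05, and differently numbered ones at -0.28 to 0.17. With the replicate block 0 genes were called, and 2364 of 22991 had an unadjusted limma p under 0.05, against 1645 without the block. The members' median stayed at 0.25, with 3 members, Hand2, Hey2 and Tbx5, at an unadjusted limma p under 0.05. All member probes were well above background on every array. Hey2, close to the dim end, still moved from 0.50 as reported to 0.12 under quantile scaling and 0.07 with normexp and quantile scaling. The members' SE of 0.19 to 0.44 comes from 3 arrays per group.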
